A study of Homo sapiens with 6 samples.

Results

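Transcripts of 10 genes listed as output or feedback genes of MAPK signalling, mainly of its RAS-ERK branch, were followed in HCT116 cells with and without oxaliplatin. The genes were taken by symbol from the deposited table: the dual-specificity phosphatases DUSP4, DUSP5, DUSP6 and DUSP14, the Sprouty and SPRED genes SPRY2, SPRY4 and SPRED1, the PEA3 transcription factors ETV4 and ETV5, and PHLDA1. All 10 were found among the 27942 genes of the table, and all 10 were among the 13727 genes that passed the filter on low counts. HCT116 is an established colorectal carcinoma line that carries wild-type p53 and a mutated CTNNB1. The NT group was left untreated and the OXA group was exposed for 24 h to oxaliplatin, a platinum drug that forms DNA adducts, at 0.5 µM, which the study used as its half-maximal inhibitory concentration. Each group had 3 libraries of polyadenylated RNA, numbered 1 to 3, with 32979521 to 40967880 counts per library. As all libraries came from 1 cell line, they say nothing of other genetic backgrounds. No source used here says whether the 3 libraries of a group came from separate cultures, so every p-value measures the spread between these libraries, which may be technical.

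In the RAS-ERK cascade, active RAS recruits RAF, RAF phosphorylates MEK, and MEK phosphorylates the ERK kinases, which enter the nucleus and switch on transcription. Several of the genes switched on in this way act back on the cascade: dual-specificity phosphatases remove the phosphates that activate MAP kinases, and Sprouty and SPRED proteins limit the activation of RAS and RAF upstream. ETV4 and ETV5 are transcription factors of the ETS family that carry the signal on to further genes. Because their mRNAs follow ERK activity closely in many cell types, transcripts of this kind are widely used as a readout of the pathway. Neither ERK phosphorylation nor any protein was measured in these libraries.

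Of the phosphatase genes, DUSP6 and DUSP14, which moved in opposite directions, were read in the RefSeq promoter table (GRCh38.p14). The 250 bases before the annotated start of each are shown to set their composition side by side, 5′ to 3′ on the strand of the gene, with the core of an ETS binding motif in capitals where a search on both strands found one. The stretch of DUSP6 is chr12:89352502-89352751, minus strand, and that of DUSP14 is chr17:37489641-37489890, plus strand.
DUSP6: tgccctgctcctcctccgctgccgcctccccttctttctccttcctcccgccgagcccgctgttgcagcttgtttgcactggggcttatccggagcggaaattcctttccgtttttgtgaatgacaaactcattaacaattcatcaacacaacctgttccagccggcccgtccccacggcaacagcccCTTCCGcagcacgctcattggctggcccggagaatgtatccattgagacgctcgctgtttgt
DUSP14: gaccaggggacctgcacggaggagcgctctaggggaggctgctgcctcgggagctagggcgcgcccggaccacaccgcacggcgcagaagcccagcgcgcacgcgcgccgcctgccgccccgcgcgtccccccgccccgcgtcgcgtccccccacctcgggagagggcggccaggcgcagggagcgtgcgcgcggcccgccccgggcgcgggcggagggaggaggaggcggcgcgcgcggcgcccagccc

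The stretch of DUSP6 was 57.2% G and C and that of DUSP14 was 82.8%, against a median of 58.0% over all stretches of the table. DUSP6 held the ETS core CGGAAG, read on the opposite strand, from position -62 to -57 relative to its start site. Windows of 6 of the 10 genes were searched: DUSP6, DUSP14, SPRY2, SPRY4, SPRED1 and PHLDA1. For the 10 genes any window on chromosome 8, where DUSP4 lies, was left out, so none is given for DUSP4. The ETS core was present in the first window of 2 of these 6, DUSP6 and PHLDA1, where it lay from -47 to -42, and in 19.5% of all 35116 windows of 300 bases. The AP-1 motif TGANTCA, the cyclic AMP response element, the serum response element and the p53 half-site were found in 0 of the 6 and in 7.71%, 1.85%, 1.29% and 6.63% of all windows. A match shows only that these letters are in the window, and its absence says nothing about the binding of a factor.

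The 10 transcripts covered a wide range of abundance (the plot of levels per transcript length). As levels of different genes can only be compared per length, levels are given as CPM, the counts scaled by the effective library size, per kilobase of the canonical transcript of each gene. On this scale DUSP6, which encodes a cytoplasmic phosphatase selective for ERK, had the highest level in both groups, with 103 ± 2.703 (SD, n = 3) in NT and 72.2 ± 1.74 in OXA. SPRY2, one of the Sprouty inhibitors, had the lowest, with 3.98 ± 0.034 in NT and 3.36 ± 0.25 in OXA. The highest level was 25.96 times the lowest in NT and 21.5 times in OXA.

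In NT, DUSP6 was followed by PHLDA1, at 47.6 ± 4.60, and by DUSP5, at 40.7 ± 1.60, and the libraries of these 3 genes did not overlap. ETV5 (33.5 ± 3.12), SPRY4 (32.5 ± 1.75), ETV4 (26.7 ± 6.60), DUSP14 (17.9 ± 1.63) and DUSP4 (16.6 ± 2.36) came next. Each of these genes overlapped with the next in that order. The libraries of ETV5 and SPRY4 lay above those of DUSP14 and DUSP4 without overlap, and ETV4 reached down to DUSP14 only in its library 1, at 19.1. SPRED1, at 10.6 ± 1.21, lay below all of them. In OXA the order of level per length was DUSP6, DUSP5 (63.7 ± 2.24), PHLDA1 (55.3 ± 6.31), DUSP14 (36.4 ± 1.33), ETV4 (29.0 ± 2.39), SPRY4 (25.6 ± 0.89), DUSP4 (25.1 ± 2.59), ETV5 (25.1 ± 3.10), SPRED1 (10.9 ± 1.28) and SPRY2. Among neighbours in this order, DUSP5 overlapped with PHLDA1, SPRY4 with DUSP4 and DUSP4 with ETV5, and the others did not overlap. Between the groups DUSP14 moved from rank 7 to rank 4, and ETV5 from rank 4 to rank 8.

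**Figure D1:**
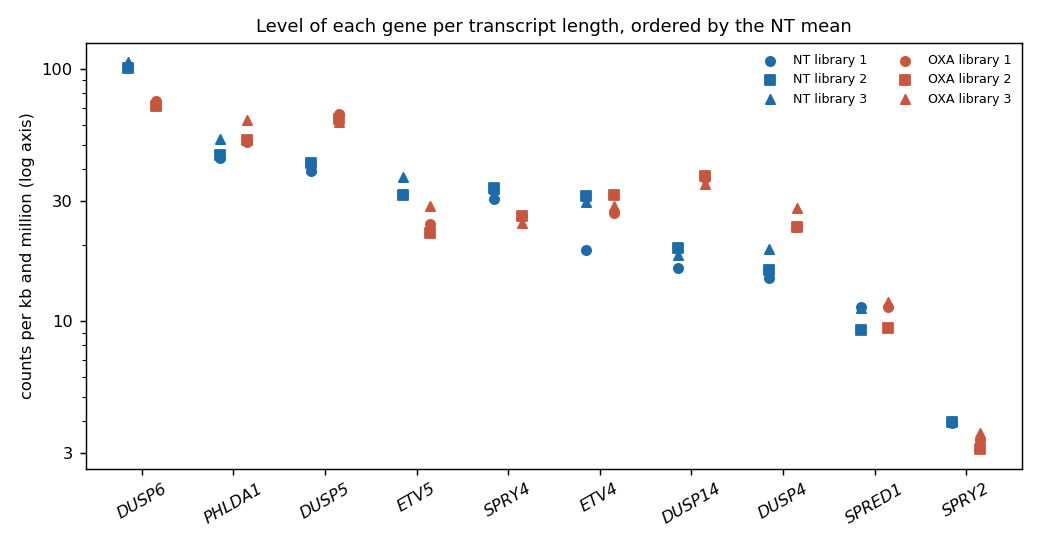
Level of each of the 10 genes in the 6 libraries, as CPM per kilobase of the canonical transcript (log axis), with genes ordered by their NT mean, NT libraries in blue and OXA libraries in red. DUSP6 lies highest in both groups, at a mean of 103 in NT and 72.2 in OXA, and SPRY2 lowest, and the OXA points of DUSP14, DUSP5 and DUSP4 lie above their NT points.

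Upon oxaliplatin treatment the family split. DUSP4, DUSP5 and DUSP14 rose, by 1.51, 1.57 and 2.03 times, and DUSP6 fell to 0.699 of its NT level, each at an adjusted p under 0.05 in edgeR's quasi-likelihood test (Benjamini-Hochberg, over every gene tested). SPRY2, SPRY4, SPRED1, ETV4, ETV5 and PHLDA1 did not pass this threshold. In all, 4 of the 10 genes passed it, 3 upwards and 1 downwards, where 5.07% of all 13727 genes did, 2.78% upwards and 2.29% downwards. Among the 9713 genes at least as abundant as SPRY2, the least abundant of the 10, the share was 5.82%. The median log2 fold change of the 10 genes was 0.077, against 0.023 over all genes tested, and their median absolute log2 fold change was 0.38, against 0.19. In bulk RNA, less of a transcript per cell and fewer cells that make it cannot be told apart.

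DUSP14 showed the greatest difference of the 10. It encodes a small atypical dual-specificity phosphatase that lacks the kinase-binding domain of the classical MAP kinase phosphatases. The gene (ENSG00000276023) lies on the plus strand at chr17:37489891-37513501 in GRCh38, with 3 exons in its canonical transcript. Its normalized counts, which are raw counts scaled to a common effective library size, were 856, 1027 and 964 in NT libraries 1 to 3, and 1954, 1978 and 1847 in OXA libraries 1 to 3. All OXA libraries were above all NT libraries, with NT library 1 the lowest of the 6. The mean was 949 ± 86.4 (SD, n = 3) in NT and 1926 ± 70.1 in OXA, a log2 fold change of 1.02 (standard error 0.10, 95% interval 0.78 to 1.26, edgeR adjusted p = 0.0038). The call was kept with any 1 of the 6 libraries left out, with an edgeR adjusted p of at most 0.0365.

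DUSP5 and DUSP4 encode nuclear phosphatases that are induced by ERK, the first with a strong preference for ERK, the second acting on several MAP kinases. DUSP5 (ENSG00000138166, plus strand, chr10:110497907-110511533, 4 exons) had 3483, 3765 and 3593 normalized counts in NT and 5876, 5627 and 5482 in OXA. All OXA libraries were above all NT libraries, and the spread within each group was small. The mean rose from 3613 ± 142 to 5662 ± 199, a log2 fold change of 0.65 (standard error 0.080, 95% interval 0.46 to 0.83, edgeR adjusted p = 0.00768). Without OXA library 1 the edgeR adjusted p was 0.0608, and without any of the other 5 libraries it stayed under 0.05.

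DUSP4 (ENSG00000120875, minus strand, chr8:29333064-29350684, 4 exons) had 2936, 3171 and 3840 normalized counts in NT and 4717, 4692 and 5599 in OXA. The groups did not overlap, and library 3 was the highest of both. The mean rose from 3316 ± 469 to 5003 ± 517, a log2 fold change of 0.59 (standard error 0.13, 95% interval 0.30 to 0.89, edgeR adjusted p = 0.0428). This call was close to the threshold: it was lost without NT library 2 or 3 and without OXA library 1, 2 or 3, at edgeR adjusted p of 0.0586 to 0.152. It was also lost with the authors' gene-specific factors (edgeR adjusted p = 0.0673). A fit that pairs libraries by their number (the replicate block, explained with the processing) gave an edgeR adjusted p of 0.00299.

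DUSP6 (ENSG00000139318, minus strand, chr12:89347235-89352501, 3 exons), the phosphatase whose upstream sequence is shown above, moved the other way. It had 13354, 13133 and 13822 normalized counts in NT and 9654, 9227 and 9311 in OXA. No OXA library reached the lowest NT library, and the spread within each group was small. The mean fell from 13436 ± 352 to 9397 ± 227, a log2 fold change of -0.52 (standard error 0.077, 95% interval -0.69 to -0.34, edgeR adjusted p = 0.0127). The call was lost without NT library 3 or without OXA library 1, 2 or 3, at edgeR adjusted p of 0.0511 to 0.0858. Of its 3859 exonic bases, 1105 are shared with an antisense long noncoding RNA, ENSG00000274021, and the strand setting of the counting is not given in the sources used here.

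**Figure D2:**
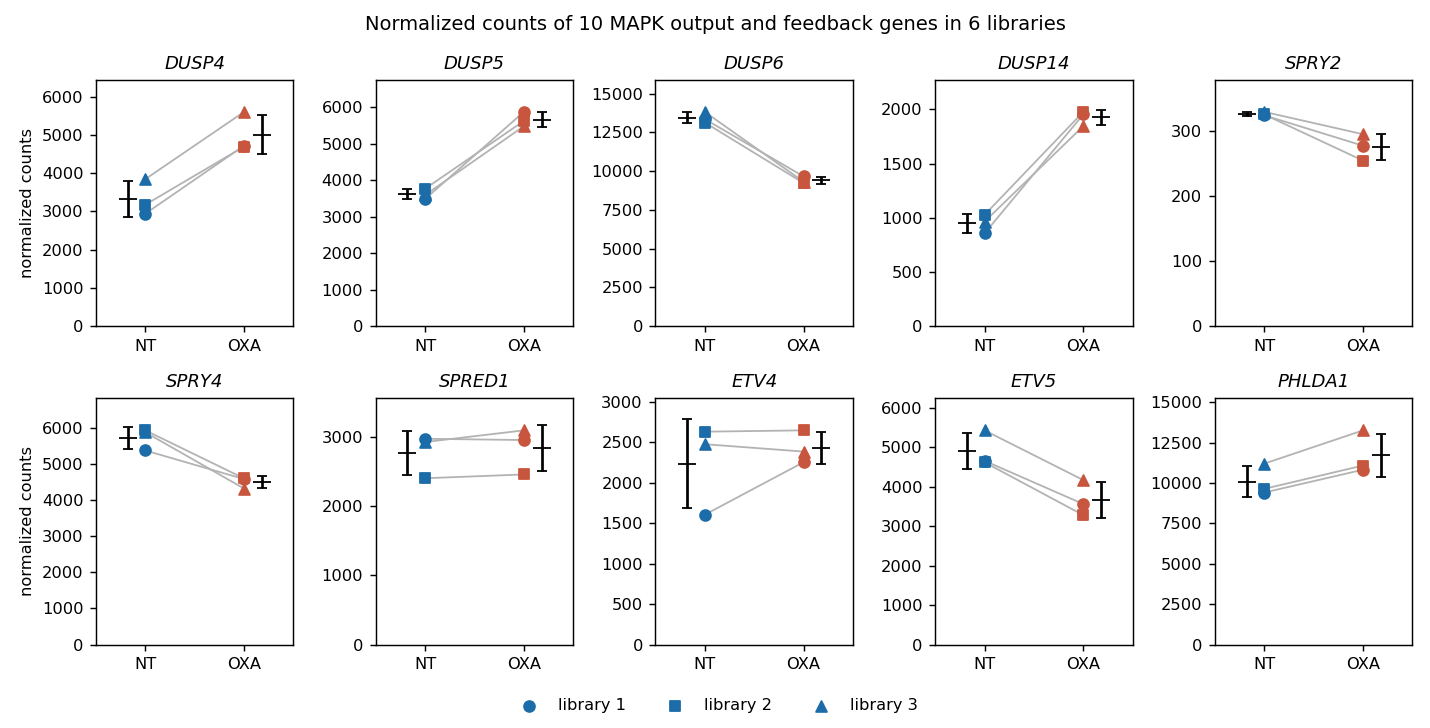
Normalized counts of the 10 genes in NT and OXA libraries, with axes starting at 0, same-numbered libraries joined by grey lines and the mean ± SD (n = 3) of each group as a black cross with bars. DUSP4, DUSP5 and DUSP14 lie higher and DUSP6 lower in every OXA library than in any NT library, and ETV4 shows 1 low NT library, library 1 at 1603.

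SPRY2, SPRY4 and SPRED1 encode membrane-associated inhibitors: Sprouty proteins interfere with the steps from receptor to RAF, and SPRED1 brings the RAS GTPase-activating protein neurofibromin to the membrane. None of the 3 had an edgeR adjusted p under 0.05, and in SPRY2 and SPRY4 all OXA libraries lay below all NT libraries. SPRY4 (ENSG00000187678, minus strand, chr5:142310427-142326455, 2 exons) had 5367, 5924 and 5871 normalized counts in NT and 4575, 4594 and 4314 in OXA. The groups did not overlap, although NT library 1 lay nearer to the OXA libraries than the other NT libraries did. The means were 5721 ± 307 and 4495 ± 157, a log2 fold change of -0.35 (standard error 0.083, 95% interval -0.54 to -0.16, edgeR adjusted p = 0.0570). With the replicate block SPRY4 passed the threshold (log2 fold change -0.35, edgeR adjusted p = 0.0141). It also did so with library totals alone as the scaling (edgeR adjusted p = 0.0354), without NT library 1 (0.0235) and in DESeq2 (0.0329).

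SPRY2 (ENSG00000136158, minus strand, chr13:80335976-80341126, 2 exons) had 324, 325 and 329 normalized counts in NT and 277, 254 and 295 in OXA. The NT libraries were nearly equal and the OXA libraries spread over a wider range below them. The means were 326 ± 2.75 and 275 ± 20.3, and the log2 fold change of -0.24 had an interval from -0.54 to 0.055 (standard error 0.13, edgeR adjusted p = 0.328). SPRY2 passed the threshold in none of the 10 other fits on the 6 libraries and in none of the 6 fits that left out a library. SPRED1 (ENSG00000166068, plus strand, chr15:38252836-38357249, 7 exons) had 2970, 2400 and 2923 normalized counts in NT and 2952, 2455 and 3092 in OXA, with library 2 the lowest of both groups. The groups overlapped throughout, and the log2 fold change was 0.035 (standard error 0.13, 95% interval -0.26 to 0.33, edgeR adjusted p = 0.904). Its sign was not stable: it was negative without NT library 2 (-0.089), without OXA library 3 (-0.066) and with library totals alone (-0.0046).

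ETV5 and ETV4 encode closely related ETS factors of the PEA3 group, whose transcripts fall quickly in many cells when MEK is inhibited. ETV5 (ENSG00000244405, minus strand, chr3:186046314-186110318, 13 exons) had 4657, 4619 and 5428 normalized counts in NT and 3560, 3279 and 4168 in OXA. All OXA libraries were below all NT libraries, and library 3 was the highest and library 2 the lowest of both groups. The means were 4902 ± 457 and 3669 ± 454, a log2 fold change of -0.42 (standard error 0.12, 95% interval -0.69 to -0.14, edgeR adjusted p = 0.0872). With the replicate block ETV5 passed the threshold (log2 fold change -0.42, edgeR adjusted p = 0.00632), as it did in DESeq2 (adjusted p = 0.0386). Of its 5773 exonic bases, 164 are shared with DGKG on the same strand, which had 431 to 764 raw counts per library.

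ETV4 (ENSG00000175832, minus strand, chr17:43527844-43579620, 13 exons) had 1603, 2628 and 2474 normalized counts in NT and 2251, 2644 and 2382 in OXA. The groups overlapped, and library 1 was the lowest of both, with NT library 1 well below the other 5. The log2 fold change was 0.12 (standard error 0.18, 95% interval -0.30 to 0.54, edgeR adjusted p = 0.762), and without NT library 1 it was -0.072. PHLDA1 (ENSG00000139289, minus strand, chr12:76025447-76031776, 2 exons) encodes a protein with a pleckstrin homology-like domain whose transcript is induced by ERK. It had 9417, 9645 and 11208 normalized counts in NT and 10832, 11092 and 13270 in OXA. The groups overlapped, since NT library 3 was above OXA libraries 1 and 2, yet each OXA library exceeded the NT library of its own number. The log2 fold change was 0.22 (standard error 0.11, 95% interval -0.049 to 0.48, edgeR adjusted p = 0.327), and with the replicate block it was 0.22 at an edgeR adjusted p of 0.0246. Without OXA library 3 it was 0.090 (edgeR adjusted p = 0.760). PHLDA1 shares 553 of 5913 exonic bases with PHLDA1-AS1 on the opposite strand.

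Libraries of the same number resembled each other across the groups, as described with the processing, and this was visible in the 10 genes. Of the 10 genes, 7 were highest in the same-numbered library of both groups, and 4 of these 7, DUSP4, SPRY2, ETV5 and PHLDA1, in library 3. Within same-numbered pairs, 4 genes were higher in OXA in all 3 pairs (DUSP4, DUSP5, DUSP14 and PHLDA1) and 4 were lower in all 3 (DUSP6, SPRY2, SPRY4 and ETV5). The matching shares over all genes tested were not computed, so neither count can be read as a trait of the 10 genes. The pairwise log2 difference was 0.94 to 1.19 for DUSP14 and -0.57 to -0.47 for DUSP6, and that of PHLDA1 was 0.20, 0.20 and 0.24. For ETV4 it was 0.49 in pair 1, 0.0088 in pair 2 and -0.054 in pair 3, so the pairs disagreed.

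With the replicate block, 4 of the 10 genes were higher (DUSP4, DUSP5, DUSP14 and PHLDA1) and 3 lower (DUSP6, SPRY4 and ETV5) at an edgeR adjusted p under 0.05, where 23% of all genes tested passed, 12.1% higher and 10.9% lower. Counted without any fit, the libraries of NT and OXA did not overlap in 7 of the 10 genes, 3 higher in OXA and 4 lower. Over all genes tested 28.9% did not overlap, 14.5% higher and 14.4% lower, and among the genes at least as abundant as SPRY2 the share was 30.8%.

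**Figure D3:**
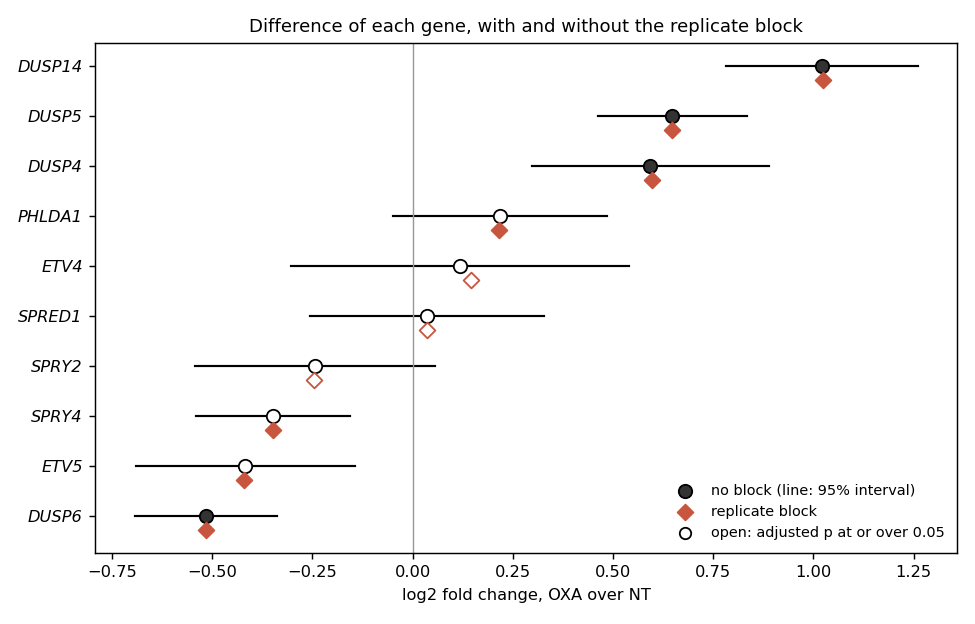
Log2 fold change of each gene, OXA over NT, from edgeR without a block (circles, with the 95% interval as a line) and with the replicate block (diamonds), with filled symbols for an adjusted p under 0.05. Without the block DUSP14, DUSP5, DUSP4 and DUSP6 are filled, and with it also PHLDA1, SPRY4 and ETV5, at almost the same fold changes.

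As DUSP6 fell while the other phosphatases rose, the balance between them was examined within each library, where a ratio of raw counts does not depend on how libraries are scaled. The 8 ratios were chosen after the values had been seen. DUSP14 had 0.064, 0.078 and 0.070 counts per DUSP6 count in NT libraries 1 to 3, and 0.202, 0.214 and 0.198 in OXA. The mean ratio went from 0.0707 ± 0.0071 to 0.205 ± 0.0083, that is 2.91 times. DUSP5 had 0.269 ± 0.015 counts per DUSP6 count in NT and 0.602 ± 0.012 in OXA (2.24 times), and DUSP4 had 0.246 ± 0.029 and 0.533 ± 0.060 (2.16 times). In all 3 ratios the OXA libraries were above the NT libraries without overlap. DUSP5 against DUSP4, both nuclear phosphatases, was 1.10 ± 0.15 in NT and 1.14 ± 0.14 in OXA, and the libraries overlapped.

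Among the other genes, ETV4 had 0.456 ± 0.11 counts per ETV5 count in NT and 0.670 ± 0.12 in OXA, and PHLDA1 had 2.06 ± 0.033 and 3.203 ± 0.17. In both ratios the OXA libraries were above the NT libraries without overlap. For ETV4 against ETV5 the groups nearly touched, at 0.569 in NT library 2 and 0.571 in OXA library 3. SPRY2 against SPRY4 was 0.0571 ± 0.0029 in NT and 0.0614 ± 0.0065 in OXA, with overlapping libraries, as was SPRED1 against SPRY4 (0.485 ± 0.075 and 0.632 ± 0.092). Since the ratios were chosen with the fold changes of their genes known, they restate those changes on another scale, and no test was applied to them.

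**Figure D4:**
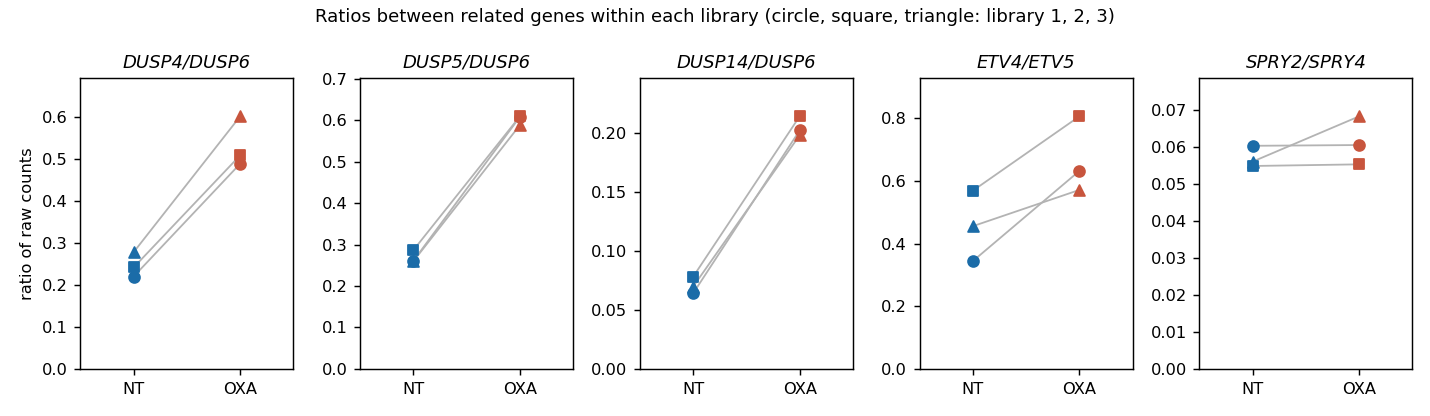
Ratio of raw counts between related genes within each library (axes from 0), NT in blue and OXA in red, with same-numbered libraries joined. DUSP4, DUSP5 and DUSP14 all stand higher relative to DUSP6 in OXA, DUSP14 at a mean of 0.205 against 0.0707, and SPRY2 relative to SPRY4 overlaps between the groups.

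The closest relatives of the 10 genes were read in the same fit. Of 14 further DUSP, Sprouty, SPRED, PEA3 and PHLDA genes, 2 rose and 0 fell. Over all genes tested 2.78% were higher and 2.29% lower. The median log2 fold change of the 14 was 0.27, against 0.023 over all genes tested. PHLDA3, a p53-induced inhibitor of AKT, rose from 347 ± 138 to 1188 ± 241 normalized counts (log2 fold change 1.77, edgeR adjusted p = 0.0218). SPRY1, a further Sprouty gene, rose from 87.0 ± 12.7 to 160 ± 8.32 normalized counts (log2 fold change 0.88, edgeR adjusted p = 0.0358), whereas SPRY2 and SPRY4 had negative log2 fold changes. PHLDA2 (0.74, edgeR adjusted p = 0.388) and SPRY3 (0.71, edgeR adjusted p = 0.121) had the largest log2 fold changes among those that did not pass. That of PHLDA2 was 0.43 without NT library 1, 1.26 without NT library 2 and 0.32 without OXA library 2. For ETV1, the remaining PEA3 gene, it was -0.31 (edgeR adjusted p = 0.138). PHLDA2 and ETV1 passed as well with the replicate block, at edgeR adjusted p of 0.0116 and 0.0135, where 23% of all genes tested passed.

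The cascade itself showed no call in either direction without the block. Of 21 genes from GRB2 and SOS1 through RAS, RAF and MEK to ERK and its RSK kinases, 0 passed the edgeR adjusted p of 0.05. Over all genes tested 5.07% passed, so 0 of 21 does not show that the cascade was unchanged. The groups did not overlap in 3 genes higher and 5 lower in OXA, against 14.5% and 14.4% of all genes tested. With the replicate block 4 were higher and 4 lower, against 12.1% and 10.9%. At an unadjusted p under 0.05, 3 were higher and 4 lower, where 21.7% of all genes tested passed (1463 higher and 1517 lower of 13727), and DESeq2 called KSR1 and SHC1 higher and RPS6KA3 lower. The median log2 fold change was -0.032. KSR1, a scaffold for RAF and MEK, had the largest difference (0.46, edgeR adjusted p = 0.0701), followed by RPS6KA3, which encodes an RSK kinase (-0.43, edgeR adjusted p = 0.0710). RPS6KA3 was called lower with library totals alone (edgeR adjusted p = 0.0438) and with the CPM filter (0.0493). With the authors' gene-specific factors the log2 fold changes were 0.25 for KSR1 and -0.23 for RPS6KA3. SHC1, KSR1, MAP2K1 and RPS6KA1 were higher with the replicate block, at log2 fold changes of 0.21 to 0.46 (without the block, RPS6KA1 was at 0.36 and at 0.18 when NT library 1 was left out, and MAP2K1 at 0.21 and at 0.14 when OXA library 3 was left out), and GAB1 (-0.39) and RPS6KA3 (-0.42) were among those lower.

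Among 10 other inhibitors of RAS-ERK signalling, IL17RD alone passed the edgeR threshold, where 5.07% of all genes tested did. It encodes SEF, an inhibitor of the pathway, and, like DUSP6, fell, from 2094 ± 204 to 1436 ± 156 normalized counts (log2 fold change -0.54, edgeR adjusted p = 0.0450). The median log2 fold change of these 10 was 0.0031. LZTR1, which promotes the degradation of RAS proteins, differed by 0.46 on the log2 scale (edgeR adjusted p = 0.302) and ERRFI1, an inhibitor of the EGF receptor, by 0.25 (edgeR adjusted p = 0.223). The log2 fold change of LZTR1 was 0.24 without NT library 1 and 0.28 with the authors' gene-specific factors, and that of ERRFI1 was 0.16 without NT library 2 or OXA library 3. Both genes were higher with the replicate block, at edgeR adjusted p of 0.0342 and 0.0157, where 12.1% of all genes tested were higher.

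Of 12 other transcripts known to depend on ERK, 4 rose and 0 fell, where 2.78% of all genes tested were higher and 2.29% lower, and the median log2 fold change was 0.44. CCND1, which encodes cyclin D1, rose from 17418 ± 1035 to 27844 ± 438 normalized counts (log2 fold change 0.68, edgeR adjusted p = 0.00768). EPHA2, a receptor tyrosine kinase, rose from 3481 ± 940 to 7230 ± 1043 (1.05, edgeR adjusted p = 0.0298), and FOSL1, an AP-1 subunit, from 2680 ± 452 to 5347 ± 913 (1.00, edgeR adjusted p = 0.0178). HBEGF, a ligand of the EGF receptor, rose from 265 ± 22.4 to 467 ± 38.9 (0.82, edgeR adjusted p = 0.0200). Thus CCND1, EPHA2, FOSL1 and HBEGF moved in the direction of DUSP4, DUSP5 and DUSP14, and opposite to DUSP6. PLAUR (0.73, edgeR adjusted p = 0.0908) and MYC (0.55, edgeR adjusted p = 0.0655) had the next largest differences. The log2 fold changes of EGR1 (-0.35, edgeR adjusted p = 0.218) and FOS (-0.34, edgeR adjusted p = 0.498) were the 2 below 0. Without NT library 1 both were called lower, EGR1 at -0.47 (edgeR adjusted p = 0.0421) and FOS at -0.58 (edgeR adjusted p = 0.0479), and without NT library 2 they were at -0.23 and -0.14. With the replicate block 8 of the 12 were higher and 1, EGR1, lower, where 12.1% of all genes tested were higher and 10.9% lower.

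Of the 7 genes of these lists that passed, CCND1 lost its call only without OXA library 1 (edgeR adjusted p = 0.0566). PHLDA3, SPRY1, IL17RD and HBEGF lost it without any 1 library other than NT library 1, and the highest edgeR adjusted p were 0.0944, 0.140, 0.182 and 0.113. SPRY1 also lost it with the authors' gene-specific factors (0.66, edgeR adjusted p = 0.117). EPHA2 lost it without NT library 3 or any 1 OXA library (up to 0.118) and FOSL1 without NT library 3 or OXA library 1 or 2 (up to 0.0852).

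**Figure D5:**
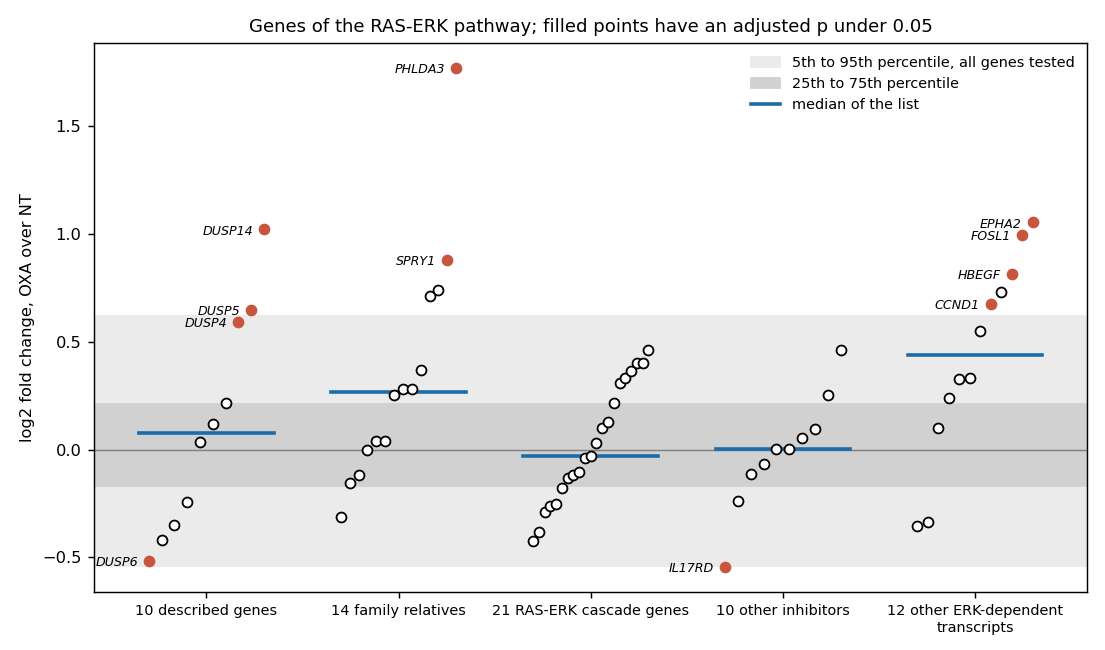
Log2 fold change, OXA over NT, of each gene of 5 lists of the RAS-ERK pathway (points, sorted within a list), with the median of each list as a blue line and grey bands for the 5th to 95th and 25th to 75th percentile of all genes tested. Filled points have an edgeR adjusted p under 0.05: DUSP4, DUSP5, DUSP6 and DUSP14 of the 10 genes, 2 relatives, 0 cascade genes, 1 other inhibitor and 4 other ERK-dependent transcripts, the last with the highest median, 0.44.

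Of 8 epithelial and intestinal markers 7 passed the filter, and CDX1 had 0 counts in every library. The epithelial genes EPCAM, CDH1, KRT8 and KRT18 were abundant, with at least 3282 raw counts in each library, and the intestinal factor CDX2 had 434 to 599. KRT20, with 26 to 61 raw counts, and VIL1, with 39 to 95, were low, below VIM of the other cell types (141 to 312). The summed level of the 8, carried mostly by KRT8 and KRT18, was 1982 to 2668 CPM in NT and 2818 to 3161 in OXA, and none was called by edgeR. Of 8 markers of other cell types, PTPRC, CD3E, PECAM1 and COL3A1 had at most 10 counts in every library. The others, besides VIM, were detected: CD68 had 152 to 237 raw counts, COL1A1 107 to 273 and DES 88 to 166. The sum of the 8 was 15.03 to 23.1 CPM in NT and 21.7 to 22.9 in OXA. NT library 1 stood apart from the other NT libraries. Without it DUSP4, DUSP5, DUSP6 and DUSP14 kept their edgeR calls, SPRY4 was added (adjusted p = 0.0235) and the sign of ETV4 turned, as given above. The part that the marker levels have in the results for the 10 genes was not tested.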

How the data were processed

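RNA of untreated (NT) and oxaliplatin-treated (OXA) HCT116 cells was sequenced in 3 libraries each, and groups and numbers came from the sample labels. The submitters' processing notes name Trimmomatic 0.32, STAR 2.7.5b, RSEM 1.3.3 and DESeq2 2.13, without roles, and GRCh38. The annotation and strand setting of the counting are not given in the sources used here. The raw counts per gene were used as deposited by the authors. The authors also deposited a normalized signal, the raw count times a factor that differs between genes and libraries, which served only as an alternative.

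Genes were filtered with filterByExpr (minimum count 10, minimum total 15), scaled by TMM and compared with edgeR's quasi-likelihood test. P-values were adjusted by Benjamini-Hochberg over the 13727 genes tested. Versions were R 4.3.3 with edgeR 4.0.16, DESeq2 1.42.0 and limma 3.58.1. The code was tested on simulated data. Positions, exons and lengths came from GENCODE on GRCh38, and upstream sequences from RefSeq (GRCh38.p14). Intervals are 95% and cover the spread between libraries.

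Across genes, deviations of same-numbered NT and OXA libraries from their group means correlated at 0.55, 0.54 and 0.31 for numbers 1 to 3, each over the limit of 0.1, and at -0.47 to 0.090 for different numbers. The numbers come from the labels, which do not say what they mark. The fit with the number as a block is therefore given where it changes a call. No 2 libraries of a group agreed within counting error: the chi-square per gene was 18.3 to 28.1 among most pairs and 79.1 and 72.0 for NT library 1 against NT libraries 2 and 3.

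The 10 genes and the lists of related genes were chosen with earlier results of these data known. Named were the 10, and of the other lists the genes called, the 2 with the largest absolute log2 fold change among the rest, and any gene of a count of 5 or fewer. Some genes that this rule selects are not reported here. Alternatives were other scalings, other filters, DESeq2, limma-voom, other edgeR settings, the block and fits without 1 library.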

Additional observations from a re-analysis of the deposited data

How the results depend on the processing

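DUSP14 and DUSP5 kept their calls in all 10 other fits on the 6 libraries, as did DUSP6, and DUSP4 in 9. Of the 10 genes, 3 were higher and 1 lower. The lower count was 2 with library totals alone and 2 with a filter of CPM over 1 (SPRY4 added), and 3 in DESeq2 (SPRY4 and ETV5 added). With the replicate block, which pairs same-numbered libraries, 4 were higher and 3 lower, and it changed no call beyond those of SPRY4, ETV5 and PHLDA1. With 1 library left out, 1 to 3 were higher and 0 to 2 lower. Over all genes, 381 were higher and 315 lower. These counts were 350 and 511 with library totals alone, 363 and 479 with the CPM filter, 608 and 567 in DESeq2, 1664 and 1493 with the replicate block, 244 and 259 with the authors' factors, and 66 to 623 and 19 to 571 with 1 library left out. No scaling moved the median log2 fold change of all genes by 0.1. Of the genes in the related lists, 6 were higher and 1 lower, against 6 and 2 with library totals alone or the CPM filter, 10 and 2 in DESeq2, 17 and 7 with the replicate block, 5 and 1 with the authors' factors (SPRY1 lost), and 0 to 7 and 0 to 3 with 1 library left out. The sign changed for SPRED1 with library totals alone (-0.0046), without NT library 2 (-0.089) and without OXA library 3 (-0.066), and for ETV4 without NT library 1 (-0.072). With 1 library left out they ranged from -0.089 to 0.13 and from -0.072 to 0.22. Leaving out a library also leaves fewer samples, and the cause of the other changes was not tested.

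With 3 libraries a group, log2 fold changes of the 10 genes had standard errors of 0.077 to 0.18, and a missed threshold does not show that SPRY2, SPRED1, ETV4 or PHLDA1 were equal in both groups. Counts cannot separate antisense transcripts where the strand setting is unknown.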
